A study of Mus musculus with 13 samples.

Results

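The extracellular proteases that remodel matrix, and the proteins that hold them back, were followed in interscapular brown adipose tissue (iBAT) as 10 mouse genes: the matrix metalloproteinases Mmp2, Mmp14 and Mmp19, the tissue inhibitors Timp1, Timp2, Timp3 and Timp4, and the secreted proteases Adamts1, Adamts2 and Adamts5. They were picked by name, with earlier results of these data known. Names were matched to the Ensembl identifiers of the count tables, which listed 42416 identifiers in all. All 10 were found. Of these, 9 passed the filter for testing, more than 1 CPM (counts scaled to a common library size) in at least 5 libraries. In total 13360 genes passed. The filter was applied before scaling with edgeR's TMM factors, which the CPM values below include. Timp1 did not pass.

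The data were bulk RNA-seq of whole iBAT from 13 female mice, 1 library per mouse, with 22437277 to 32595083 counts each. Every mouse carried Axl flanked by loxP sites (loxP-Axl-loxP) and was kept at room temperature on a high-fat diet (HFD) given ad libitum. Per the study's methods, the knockout was induced with hydroxy-tamoxifen by gavage on consecutive days, in rounds repeated every 3 weeks. Whether the control mice were dosed as well is not stated there or in the labels. In the iFAXLKO group (8 mice) the genotype was Cre+, from a tamoxifen-inducible CreERT2 driven by an Adipoq transgene and so meant for adipocytes, whereas the WT group (5 littermates) was Cre-, so that the controls were floxed as well. The age at collection was not given in the labels. The comparison asks how brown fat differs when the receptor tyrosine kinase gene Axl is targeted in adipocytes of mice under HFD.

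The targeted gene, Axl, showed no loss at the level of the whole gene. It measured 33.1 ± 6.16 CPM (SD, n = 8) in libraries labelled iFAXLKO and 27.8 ± 3.82 CPM (SD, n = 5) in WT, a log2 fold change of 0.25 (SE 0.13, edgeR adjusted p = 0.699). Axl is also used by cells other than adipocytes, and the counts cover the whole gene, so the labels could not be checked from them and groups are named as labelled. The brown adipocyte markers were abundant in every library, summing to between 15735 and 26755 CPM over 11 genes.

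Matrix metalloproteinases (MMPs) are zinc-dependent enzymes that cut collagens and other matrix proteins, and most are made as inactive precursors. MMP14 sits in the plasma membrane, and together with TIMP2, which bridges the membrane enzyme and the precursor, it activates MMP2, so that TIMP2 can be both a helper and an inhibitor. ADAMTS enzymes are secreted relatives that cleave proteoglycans or trim procollagens. In fat, these enzymes and inhibitors are made by stromal cells, vessels and adipocytes, and they shape the matrix around expanding or shrinking adipocytes.

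RefSeq promoter entries (GRCm38.p6) were at hand for 7 of the 10 genes, namely Timp1, Timp2, Timp3, Timp4, Mmp14, Adamts1 and Adamts2. The windows below are shown for the inhibitors with the lowest level (Timp1), with the highest (Timp3) and with the widest spread between mice among those tested (Timp4), and for Adamts2, whose level stood apart in 1 library. Each runs 5′ to 3′ from 250 bases before the RefSeq start and stops where the first annotated exon begins, with matches to GGGCGG or its complement (a GC box) in capitals. Timp1 is chrX:20869916-20870165 on the plus strand, Timp3 chr10:86300162-86300371 on the plus strand, Timp4 chr6:115252206-115252455 on the minus strand, and Adamts2 chr11:50601835-50602083 on the plus strand.
Timp1: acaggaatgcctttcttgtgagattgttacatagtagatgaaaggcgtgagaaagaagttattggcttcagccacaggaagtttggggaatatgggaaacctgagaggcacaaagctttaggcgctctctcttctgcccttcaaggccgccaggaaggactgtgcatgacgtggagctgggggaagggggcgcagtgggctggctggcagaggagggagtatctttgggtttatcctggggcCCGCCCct
Timp3: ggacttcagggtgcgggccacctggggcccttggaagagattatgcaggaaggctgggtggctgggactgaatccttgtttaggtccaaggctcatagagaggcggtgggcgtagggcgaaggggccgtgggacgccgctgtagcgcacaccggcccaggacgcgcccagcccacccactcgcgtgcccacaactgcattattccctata
Timp4: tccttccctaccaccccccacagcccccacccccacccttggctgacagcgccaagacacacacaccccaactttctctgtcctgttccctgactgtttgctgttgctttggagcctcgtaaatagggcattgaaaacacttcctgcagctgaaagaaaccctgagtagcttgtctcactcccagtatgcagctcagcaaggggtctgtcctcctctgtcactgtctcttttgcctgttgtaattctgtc
Adamts2: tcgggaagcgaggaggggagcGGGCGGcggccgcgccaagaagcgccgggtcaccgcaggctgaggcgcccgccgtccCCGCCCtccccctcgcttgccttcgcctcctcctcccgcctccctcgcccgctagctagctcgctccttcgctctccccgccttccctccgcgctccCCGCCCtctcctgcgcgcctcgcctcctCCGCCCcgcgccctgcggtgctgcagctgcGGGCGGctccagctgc

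The promoters differed most in base composition. Over the full 250 bases, that of Adamts2 had 78.0% G or C and 34 CpG dinucleotides and that of Timp4 had 53.6% and 2, with Timp2 (68.0%, 21 CpG), Timp3 (65.6%, 18 CpG) and Timp1 (54.4%, 6 CpG) in between; the median over all 32851 windows was 52.4%. A GC box was found, on either strand, in the windows of Timp1, Timp2, Timp3, Mmp14, Adamts1 and Adamts2, with 5 matches in Adamts2, and not in that of Timp4. The match of Timp3 lies in the part that is not shown, within an exon. Among all windows of this length, 32.7% held one. TATAAA, searched the same way, was in the window of Adamts1 alone among the 7 and in 12.4% of all. TGANTCA, the letters that AP-1 factors bind, was in none of the 7 and in 6.75% of all. Timp3 and Timp4, which of the 9 genes tested had the widest spread around the group means, thus had windows unlike each other in CpG content and in the presence of a GC box. The window of Timp2 is not shown because exons are annotated within it.

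Levels between genes were compared as CPM per kilobase of exon. Timp3 was highest, at 31.6 ± 9.40 CPM per kilobase (SD over 13 libraries), and stood above Mmp19 (13.8 ± 2.40) in 13 of 13 libraries. Mmp19, Timp2 (10.4 ± 2.41), Timp4 (9.01 ± 3.18) and Mmp2 (6.88 ± 1.44) followed, and neighbours in this stretch overlapped: Mmp19 exceeded Timp2 in 10 libraries, Timp2 exceeded Timp4 in 8, and Timp4 exceeded Mmp2 in 9. A step down led to Adamts1 (2.75 ± 0.463), below Mmp2 in every library. Adamts2 (1.62 ± 0.400) and Mmp14 (1.46 ± 0.325) could not be ordered, with Adamts2 higher in 7 of 13. Adamts5 (0.972 ± 0.174) was below Mmp14 in all 13, and Timp1 came last (0.501 ± 0.360). The membrane activator Mmp14 was thus scarce beside its substrate Mmp2, which was 5.05 ± 1.28 times as high per kilobase in libraries labelled iFAXLKO (SD, n = 8) and 4.47 ± 0.579 times in WT (SD, n = 5).

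**Figure D1:**
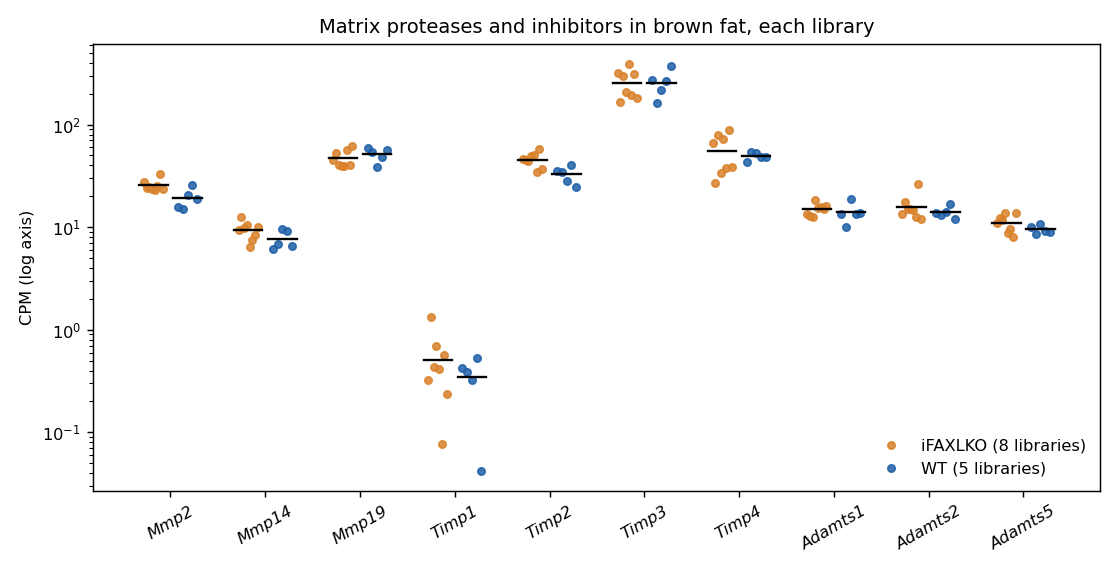
CPM of the 10 genes on a log axis, with a point for each library, libraries labelled iFAXLKO (n = 8) in orange, WT (n = 5) in blue and a bar at each group mean. Timp3 lies highest, at 162 to 387 CPM, Timp1 lowest, and the points of both groups overlap for every gene.

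Between the groups, none of the 9 genes tested passed an adjusted p of 0.05 in edgeR, where 17 of 13360 genes did (0.127%), nor in DESeq2, where 67 genes did (0.502%). At an unadjusted p under 0.05 both tools counted 2, Timp2 and Mmp2, both higher in libraries labelled iFAXLKO. In edgeR 3.84% of all genes passed in that direction. The matching share for DESeq2 was not computed, so its count has no background here. An exact permutation test of the group difference in log2 CPM over all placements of the group labels also gave 2 of 9, against 3.53% of all genes in that direction. For no member were the CPM ranges of the groups apart, which held for 0.434% of all genes. Log2 fold changes were above 0 for 8 of 9, with Timp3 counted although it rounds to 0.00, against 46.4% of all genes, and had a median of 0.18 against -0.01. That median was 0.10 without replicate 7 of the libraries labelled iFAXLKO, 0.09 with a fibroblast score as a covariate, 0.04 in limma-voom with sample weights, and 0.29 and 0.06 within the lower and the upper library numbers. The genes were chosen with earlier results of these data known, so their shared direction is not independent of that choice. Since the tissue was sequenced whole, more cells of a type and more RNA per cell cannot be told apart in any of these values.

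Mmp2 (ENSMUSG00000031740, chr8:92827291-92853420, plus strand), the gelatinase that cleaves denatured collagen and basement membrane, was measured in libraries labelled iFAXLKO at a lowest of 22.9, a median of 24.2 and a highest of 33.3 CPM. In the 5 WT libraries it was 15.8, 15.2, 20.7, 25.7 and 18.7 CPM. All 8 lay above the WT mean, yet WT replicate 4 exceeded all but 2 of them, so the groups overlapped. The mean was 25.7 ± 3.45 CPM (SD, n = 8) against 19.3 ± 4.26 CPM (SD, n = 5). The fold was 1.33 (95% interval 1.11 to 1.60, edgeR unadjusted p = 0.00501 and adjusted p = 0.462), and the exact permutation p was 0.00544, two-sided. DESeq2 gave an adjusted p of 0.177.

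Mmp14 (ENSMUSG00000000957, chr14:54431612-54445364, plus strand), the membrane-bound activator, had a lowest value of 6.39, a median of 9.62 and a highest of 12.6 CPM in libraries labelled iFAXLKO. WT libraries read 6.09, 6.87, 9.59, 9.24 and 6.49 CPM. WT thus fell into a pair near 9 CPM (replicates 3 and 4) and 3 libraries between 6.09 and 6.87, and 4 of 8 libraries labelled iFAXLKO were above the highest of them. The log2 fold change was 0.29 (SE 0.16, edgeR adjusted p = 0.728; exact permutation p = 0.120). The libraries bear running numbers in the labels, and this value differed between the lower and the higher numbers. It was 0.72 among the 6 lower numbers (4 against 2) and -0.06 among the 7 higher numbers (4 against 3), with neither value passing the test. Whether the value depends on the numbers was not tested. With library number as a covariate in all libraries, the log2 fold change of Mmp14 was 0.27.

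Mmp19 (ENSMUSG00000025355, chr10:128790910-128800824, plus strand), a secreted protease of basement membrane proteins, was the only member with a value below 0. Its lowest, median and highest values were 39.3, 42.7 and 61.2 CPM in libraries labelled iFAXLKO, and WT had 59.2, 54.0, 38.8, 48.5 and 56.8 CPM. The lowest of all 13 was a WT library and the highest was not, so that the ranges nearly coincided. This gave a log2 fold change of -0.13 (SE 0.13, edgeR adjusted p = 0.884; exact permutation p = 0.349). Mmp19 shares 789 exon bases with Tmem198b and 212 with Gm47093, both on the opposite strand. Whether counting used strand is not given in the sources used here, so reads of these genes cannot be told apart; Tmem198b measured 11.1 to 17.5 CPM and Gm47093 at most 1.13 CPM.

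Of the inhibitors, Timp2 (ENSMUSG00000017466, chr11:118301069-118355740, minus strand) had the largest difference among the 9. It ranged from 34.4 over a median of 45.7 to 58.2 CPM in libraries labelled iFAXLKO and read 35.4, 34.8, 28.1, 40.2 and 24.7 CPM in WT. Replicates 6 and 8 of those labelled iFAXLKO, at 34.4 and 37.3 CPM, lay within the WT range, and the other 6 were above all WT libraries. The mean was 45.6 ± 7.44 CPM (SD, n = 8) against 32.6 ± 6.19 CPM (SD, n = 5). The fold was 1.40 (95% interval 1.15 to 1.70, edgeR unadjusted p = 0.00245 and adjusted p = 0.381), with an exact permutation p of 0.00777, two-sided, and a DESeq2 adjusted p of 0.0783. Per kilobase, Timp2 was 1.55 ± 0.232 times Mmp2 in libraries labelled iFAXLKO (SD, n = 8) and 1.52 ± 0.410 times in WT (SD, n = 5), so this ratio of inhibitor to enzyme differed by less than its spread.

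Timp3 (ENSMUSG00000020044, chr10:86300372-86349506, plus strand), the TIMP that binds to the matrix and also inhibits ADAM17 and ADAMTS enzymes, had the highest level of the TIMPs. In WT it read 271, 162, 215, 264 and 373 CPM. Libraries labelled iFAXLKO read 316, 165, 295, 206, 387, 194, 312 and 181 CPM in replicates 1 to 8. Both groups covered the same range and had the same mean, 257 ± 80.8 CPM (SD, n = 8) and 257 ± 78.6 CPM (SD, n = 5). Their log2 fold change was 0.00, with a 95% interval from -0.49 to 0.49 (edgeR adjusted p = 1.00; exact permutation p = 0.981), so a fold of up to 1.41 either way lies within the error. Of the summed TIMP level per kilobase, Timp3 made up 58.8% ± 3.74 in libraries labelled iFAXLKO (SD, n = 8) and 63.7% ± 8.73 in WT (SD, n = 5). Timp3 lies inside Syn3 on the opposite strand and shares 1733 exon bases with it; Syn3 reached at most 1.23 CPM.

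Timp4 (ENSMUSG00000030317, chr6:115241892-115252205, minus strand), an inhibitor with a narrow tissue range that includes heart and fat, had the widest spread around the group means of the 9 genes tested. WT libraries lay close together at 42.8, 53.6, 53.0, 48.3 and 48.0 CPM. Libraries labelled iFAXLKO read 66.6, 27.0, 79.4, 33.7, 72.0, 37.7, 89.4 and 38.9 CPM in replicates 1 to 8, with 4 of them above and 4 below every WT library and none inside the WT range. The coefficient of variation was 43.0% in those (n = 8) and 8.94% in WT (n = 5), a difference that was not tested. Timp4 had a log2 fold change of 0.18 (SE 0.27, 95% interval -0.41 to 0.76, edgeR adjusted p = 0.944; exact permutation p = 0.853), and without replicate 7 of those labelled iFAXLKO it was 0.05. Timp4 lies inside Syn2 on the opposite strand and shares 90 exon bases with it; Syn2 measured 6.21 to 20.5 CPM and was highest in replicates 5 and 7 of the libraries labelled iFAXLKO, which were among the 4 high in Timp4.

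The 4 libraries labelled iFAXLKO that were high in Timp4, replicates 1, 3, 5 and 7, were also the 4 highest of that group in Timp3. In WT no such match was seen, since the library with most Timp3 (373 CPM, replicate 5) had 48.0 CPM of Timp4, near the middle of its group. Libraries with high and with low values both occurred among the lower and among the higher library numbers. Around the group means, the log2 CPM of Timp4 had an SD of 0.53, which 6.00% of all genes tested exceeded, and that of Timp3 an SD of 0.45, which 9.08% exceeded. Other members were steadier, from 0.23 for Mmp2 to 0.30 for Adamts2 and Mmp14.

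**Figure D2:**
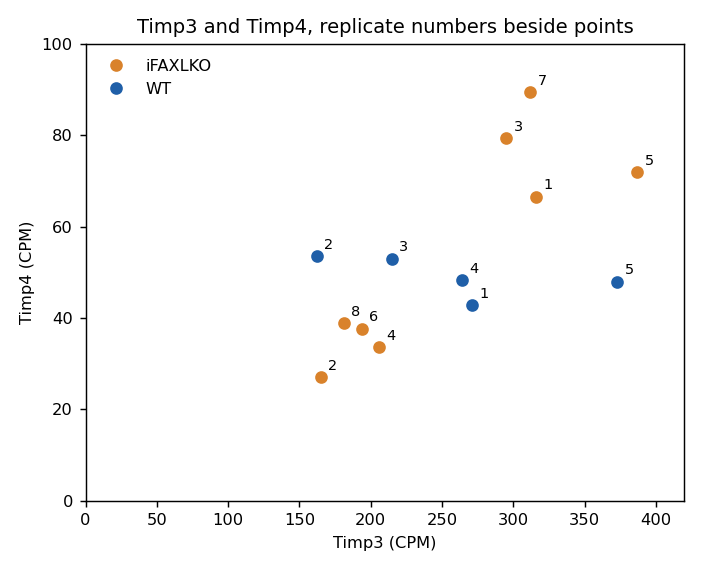
Timp4 against Timp3, both in CPM on linear axes, with a point for each library and its replicate number beside it. Replicates 1, 3, 5 and 7 labelled iFAXLKO (orange) lie at 66.6 to 89.4 CPM of Timp4 and replicates 2, 4, 6 and 8 at 27.0 to 38.9 CPM, while WT (blue) lies at 42.8 to 53.6 CPM across the whole range of Timp3.

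Timp1 (ENSMUSG00000001131, chrX:20870166-20874735, plus strand), the inhibitor that is induced in many forms of tissue injury, was near the limit of detection. It had 2 to 36 counts per library labelled iFAXLKO, a median of 0.421 CPM and a highest value of 1.32 CPM, and 13, 9, 11, 14 and 1 counts in WT, or 0.0422 to 0.535 CPM. Replicate 6 of those labelled iFAXLKO and WT replicate 5 held fewer than the 3 counts that a count of 0 would allow, which correspond to 0.092 to 0.134 CPM in these libraries; such limits cover counting error only. The exact permutation p for the difference in log2 CPM was 0.445. Timp1 lies inside Syn1 on the opposite strand, with no shared exon bases.

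Adamts1 (ENSMUSG00000022893, chr16:85793827-85803113, minus strand), a protease of versican and aggrecan, had a lowest, median and highest value of 12.6, 15.1 and 18.6 CPM in libraries labelled iFAXLKO and read 13.5, 10.1, 19.0, 13.3 and 13.8 CPM in WT. Both extremes were WT libraries, and all of the others lay between them. For Adamts1 the log2 fold change was 0.10 (SE 0.13, edgeR adjusted p = 0.924; exact permutation p = 0.412). It was 0.01 without WT replicate 2 and 0.25 without WT replicate 3.

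Adamts5 (ENSMUSG00000022894, chr16:85856173-85901828, minus strand), an aggrecanase that is its neighbour on chromosome 16, was lower in level. It ranged from 8.11 over 11.4 to 13.8 CPM in libraries labelled iFAXLKO and read 10.1, 8.52, 10.7, 9.24 and 8.98 CPM in WT. Of the 8, 5 were above all WT libraries and 1 was below all of them. Adamts5 had a log2 fold change of 0.22 (SE 0.13, 95% interval -0.05 to 0.50, edgeR adjusted p = 0.742; exact permutation p = 0.161).

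Adamts2 (ENSMUSG00000036545, chr11:50602084-50807573, plus strand), which removes the amino-terminal propeptide of fibrillar procollagens, owed much of its difference to 1 mouse. Replicate 7 of the libraries labelled iFAXLKO read 26.2 CPM, and the other 7 lay between 12.1 and 17.6 CPM. WT libraries read 13.9, 13.2, 14.0, 17.0 and 12.1 CPM, within the range of those 7. Between the groups the log2 fold change was 0.17 (SE 0.16, edgeR adjusted p = 0.880; exact permutation p = 0.498), and 0.03 without replicate 7. That library also had the highest Mmp2, Timp2 and Timp4 of all 13, and the highest summed macrophage markers, at 315 CPM. Its adipose fibroblast markers, at 1809 CPM, were the highest of all 13 as well, with replicate 1 at 1808 CPM. Its summed brown adipocyte markers, at 15735 CPM, and Schwann cell markers, at 153 CPM, were the lowest of all 13. Axl was highest there too, at 43.9 CPM.

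**Figure D3:**
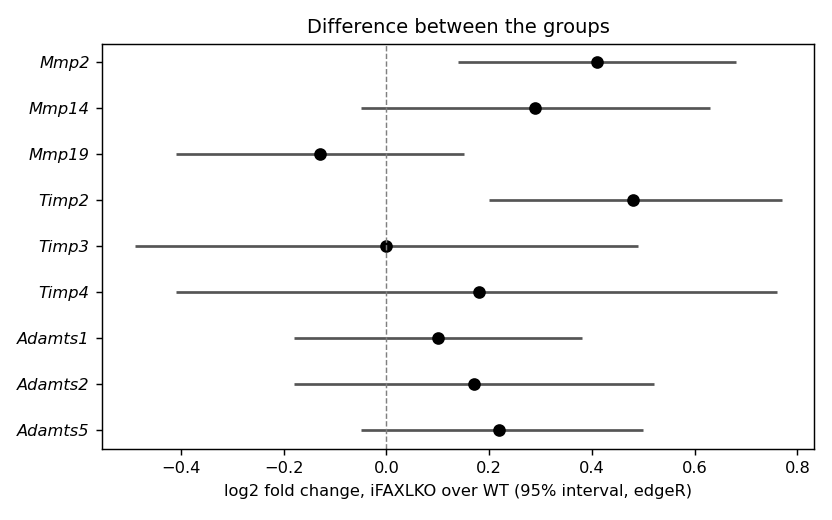
The log2 fold change of each of the 9 genes tested, libraries labelled iFAXLKO over WT, as points with 95% intervals from edgeR. The intervals of Mmp2 (0.14 to 0.68) and Timp2 (0.20 to 0.77) lie above 0, without adjustment for the number of genes, and the other 7 include 0.

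Since MMP14 and TIMP2 act together on MMP2, their levels were compared from mouse to mouse, as log2 CPM with the group means subtracted, in 3 relations over 13 libraries with p-values from permutation within groups. Mmp14 and Mmp2 gave Pearson's r = 0.33 (permutation p = 0.297, adjusted over the 3 relations 0.566) and Spearman's rho = 0.38 (permutation p = 0.235, adjusted 0.705). After leaving out the 2 libraries whose Mmp14 was most extreme, r was 0.13. For Timp2 and Mmp2, r was 0.30 (permutation p = 0.377, adjusted 0.566) and rho was -0.02 (permutation p = 0.966, adjusted 0.966), and r was 0.07 after leaving out the 2 most extreme in Timp2. For Timp2 and Mmp14, r was 0.03 (permutation p = 0.932, adjusted 0.932) and rho was -0.07 (permutation p = 0.831, adjusted 0.966), and with the same 2 left out r was -0.04. None of the 3 relations passed the test. Without TMM factors, r was 0.50, 0.45 and 0.22 in the same order, and none passed either (permutation, adjusted p of r from 0.236 to 0.494). Within the lower and the upper library numbers, r was -0.69 (n = 6) and 0.43 (n = 7) for Mmp14 with Mmp2, 0.00 and 0.75 for Timp2 with Mmp2, and -0.24 and 0.13 for Timp2 with Mmp14, and none of these passed the permutation test within groups (adjusted p from 0.250 to 1.00). Only 48 permutations exist within the lower numbers and 144 within the upper. The test within the lower numbers could therefore hardly reach a small adjusted p, and no conclusion is drawn from it.

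**Figure D4:**
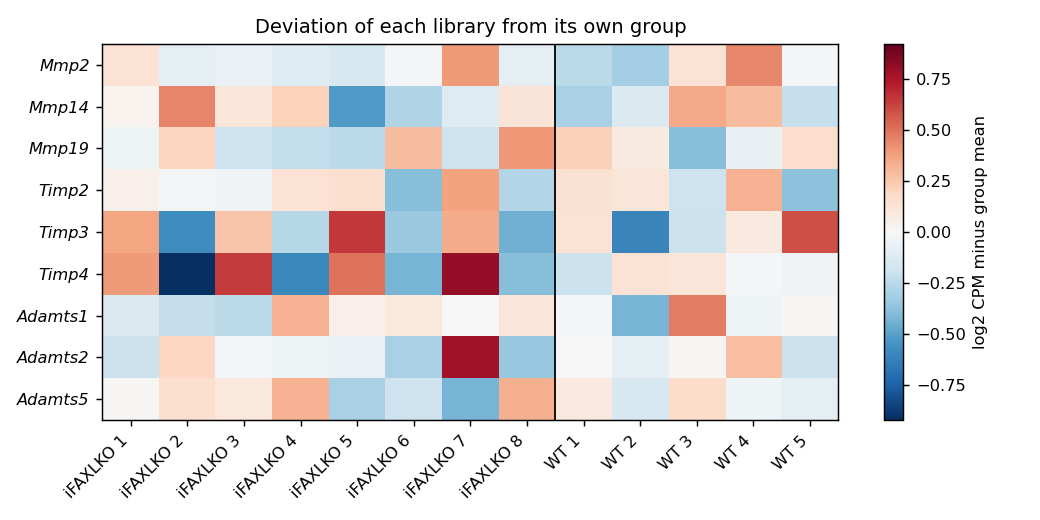
Deviation of each library from the mean of its own group, in log2 CPM, for the 9 genes tested (rows) in 13 libraries (columns), with red above and blue below the group mean. Timp3 and Timp4 alternate between red and blue in libraries labelled iFAXLKO, and replicate 7 is red for Mmp2, Timp2, Timp3, Timp4 and Adamts2.

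Other members paired differently. The largest r between deviations of 2 of the 9 members tested was that of Timp2 with Adamts2 (0.73 over 13 libraries), followed by Timp3 with Timp4 (0.67), which rests on libraries that form separate clusters in Timp4, Mmp14 with Adamts5 (0.64) and Mmp2 with Adamts2 (0.59). The most negative r were those of Timp4 with Adamts5 (-0.59) and Mmp19 with Timp4 (-0.56). All of these are descriptions over libraries that share tissue composition and depth. The closest genes named next were picked for each member as those with the largest r in the whole table. Picking the largest of so many values over 13 libraries can give a high r by chance alone. How high was not tested, so these r values are not evidence of shared regulation. The genes of the whole table closest to each member were, for Timp2, Serping1, Procr and Rnase4 (r = 0.88 each), for Mmp2, Layn (0.93), Rbm4b (0.89) and Tmem28 (0.87), and for Adamts2, Cd34 (0.93), Dlg4 and Clcn2 (0.91 each). For Mmp14 they were Cad and Bcar3 (0.90 each) and Hoxa7 (0.88), for Mmp19 Enpp2 (0.98), Hgsnat (0.96) and Sh3kbp1 (0.95), for Adamts1 Slc25a37 and Zswim6 (0.88 each) and Dusp4 (0.86), and for Adamts5 Cavin2 (0.92), Dtx4 and Pcdh17 (0.91 each). Timp3 was closest to Acer2 (0.95), Slc4a8 and Zbtb16 (0.91 each), and Timp4 to Bcl2l1 (0.96), AC122442.1 and Shb (0.92 each). Zbtb16, a zinc finger transcription factor gene, covered a wider range than Timp3, reading 122, 22.7, 93.2, 19.0, 180, 46.4, 138 and 29.5 CPM in replicates 1 to 8 labelled iFAXLKO and 98.7, 17.3, 35.8, 106 and 83.2 CPM in WT.

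The rest of the protease system was described by lists of related genes. These lists, and those of substrates and cell markers below, were drawn up with earlier results of these data known. Directions shared within them are not independent of that choice. As a background for the counts in all of these lists, 46.4% of all genes tested had a log2 fold change above 0. In edgeR 3.84% of all genes passed an unadjusted p under 0.05 and were higher in libraries labelled iFAXLKO. After adjustment 0.127% passed in edgeR and 0.502% in DESeq2, in either direction. Of 20 other MMPs, 7 passed the filter, 13 did not and 5 of those, among them Mmp7 and Mmp10, had no count in any library. Of the 7, 6 had a log2 fold change above 0 with a median of 0.19, none passed an unadjusted p under 0.05 in edgeR, and none passed after adjustment in edgeR or DESeq2. Mmp3, a stromelysin, measured 6.00 ± 1.86 CPM against 4.69 ± 1.02 CPM (log2 fold change 0.36, edgeR adjusted p = 0.745; SD, n = 8 and 5 here and for the genes that follow). Mmp28 measured 20.6 ± 3.81 CPM against 17.6 ± 4.87 CPM, and Mmp11 3.49 ± 0.954 CPM against 2.85 ± 0.625 CPM.

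Of 22 other ADAMTS and ADAMTS-like genes, 14 were tested, 9 were above 0 and the median was 0.23; 6 passed an unadjusted p under 0.05, all higher, and none passed after adjustment in edgeR. Adamts14, which like Adamts2 trims procollagen amino ends, read 1.20 ± 0.493 CPM against 0.461 ± 0.115 CPM (log2 fold change 1.39, SE 0.32, edgeR adjusted p = 0.193), and passed in DESeq2 (adjusted p = 0.0166). Adamts12 read 9.07 ± 0.707 CPM against 6.27 ± 1.74 CPM (edgeR adjusted p = 0.381), and Adamts15 5.44 ± 1.76 CPM against 3.29 ± 0.534 CPM (edgeR adjusted p = 0.462).

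Of 20 other matrix proteases, 17 were tested, 13 were above 0 and the median was 0.07, with 2 at an unadjusted p under 0.05 and none after adjustment in edgeR. Bmp1, the procollagen C-proteinase, was 23.0 ± 2.98 CPM against 17.1 ± 2.62 CPM (log2 fold change 0.43, SE 0.11, edgeR adjusted p = 0.310), and passed in DESeq2 (adjusted p = 0.0433). Fap, a serine protease of activated fibroblasts, was 5.35 ± 1.18 CPM against 3.64 ± 0.513 CPM (edgeR adjusted p = 0.407). Ctss, the lysosomal cathepsin S, was 9.43 ± 2.18 CPM against 7.41 ± 1.34 CPM (edgeR adjusted p = 0.689).

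Among 21 other inhibitors and regulators, 16 were tested, 11 were above 0 and the median was 0.20, with 3 at an unadjusted p under 0.05 and none after adjustment in edgeR or DESeq2. These were Serping1, the C1 inhibitor (36.7 ± 5.89 CPM against 29.6 ± 3.86 CPM), Reck, a membrane-anchored MMP inhibitor (3.90 ± 0.572 CPM against 2.88 ± 0.932 CPM), and Serpine2, protease nexin (19.7 ± 2.77 CPM against 16.5 ± 2.57 CPM). Their edgeR adjusted p-values were 0.550, 0.619 and 0.639.

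The substrates, also listed with earlier results of these data known, stood further from 0 than the enzymes. All 26 matrix genes listed were tested, 25 were above 0 and the median log2 fold change was 0.47; 17 passed an unadjusted p under 0.05, all higher, none after adjustment in edgeR and 3 in DESeq2. Those 3 were Col15a1, a basement membrane collagen (55.4 ± 11.6 CPM against 34.0 ± 5.66 CPM, DESeq2 adjusted p = 0.00139, edgeR adjusted p = 0.103), Lum (25.8 ± 5.27 CPM against 15.6 ± 3.41 CPM, DESeq2 adjusted p = 0.00174, edgeR adjusted p = 0.122) and Dcn (96.8 to 138 CPM against 76.3 to 98.3 CPM, DESeq2 adjusted p = 0.00313, edgeR adjusted p = 0.163). Lum and Dcn encode proteoglycans that organise collagen fibrils. For each of these 3 genes all 8 libraries labelled iFAXLKO were above the WT mean, and the ranges of the groups still overlapped.

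**Figure D5:**
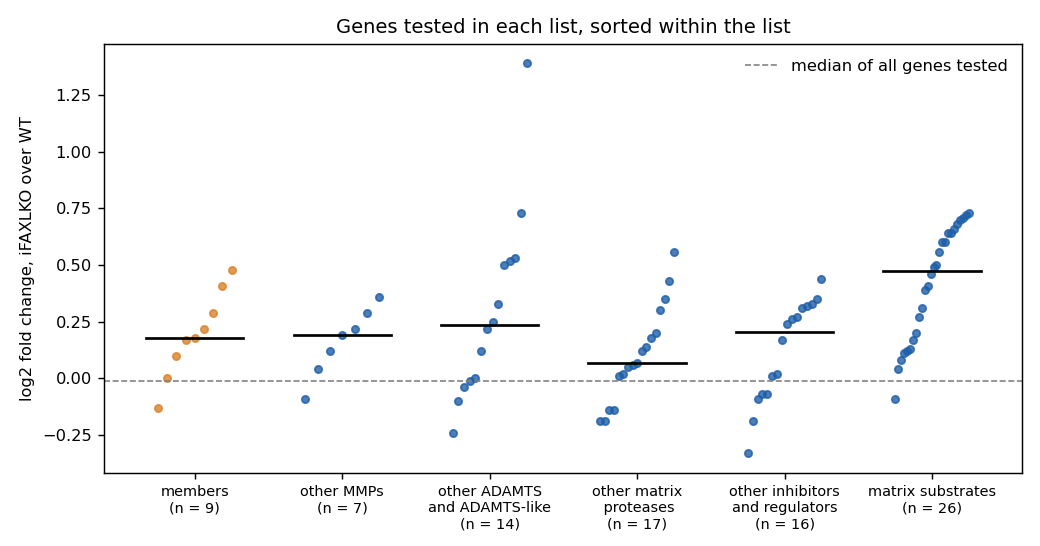
The log2 fold change of every gene tested in each list, libraries labelled iFAXLKO over WT, sorted within the list, with a bar at the list's median and a dashed line at the median of all genes tested (-0.01). The 9 members (orange) have a median of 0.18 and the 26 matrix substrates one of 0.47.

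Markers of stromal cells and macrophages differed in the same direction as Timp2 and Mmp2. Of 14 adipose fibroblast and progenitor markers, 13 were above 0 with a median of 0.41, and their summed level was 1408 to 1809 CPM in libraries labelled iFAXLKO and 1106 to 1517 CPM in WT; none was at 0, 8 passed an unadjusted p under 0.05, all higher, and 1 (Gsn) passed after adjustment in DESeq2 and none in edgeR. The smallest p-values in this list were those of Gsn, Clec3b and Mfap5 (log2 fold changes 0.37, 0.52 and 0.77). Of 12 macrophage markers, 11 were tested and all 11 were above 0 with a median of 0.40, 9 passed an unadjusted p under 0.05, all higher, and the sum was 162 to 315 CPM against 139 to 197 CPM. Csf1r, Lyz2 and C1qa led that list (0.36, 0.44 and 0.44). With the fibroblast score as a covariate, the log2 fold change was 0.07 in place of 0.48 for Timp2. It was 0.29 in place of 0.41 for Mmp2 and 0.19 in place of 0.29 for Mmp14. Values with another sign were -0.31 in place of 0.17 for Adamts2, -0.07 in place of 0.18 for Timp4 and 0.01 in place of -0.13 for Mmp19. Larger values were found for Adamts1 (0.26 in place of 0.10), Adamts5 (0.32 in place of 0.22) and Timp3 (0.09 in place of 0.00). No member passed an adjusted p of 0.05 in this fit. The part of fibroblasts and of macrophages in these results was not tested. No gene of the remaining marker lists passed the adjusted threshold in edgeR. Log2 fold changes were above 0 for 5 of 5 erythroid markers (median 0.34; Alas2 0.52, Hbb-bt 0.39, Hbb-bs 0.34), for 6 of 7 Schwann cell markers (median 0.07), for 9 of 10 endothelial markers (median 0.16; Tie1 0.22, Cdh5 0.21, Emcn 0.23) and for 9 of 10 pericyte and smooth muscle markers (median 0.11; Cnn1 0.30, Myh11 0.25, Acta2 0.17). They were above 0 for 1 of 11 brown adipocyte markers (median -0.13), of which Elovl3, a fatty acid elongase gene, measured 125 ± 45.3 CPM in libraries labelled iFAXLKO (SD, n = 8) and 202 ± 25.1 CPM in WT (SD, n = 5), which gave -0.69 on the log2 scale (SE 0.21, edgeR adjusted p = 0.474). Ucp1 and Cox7a1 followed at -0.19 and -0.15. Of the lymphocyte markers Ptprc alone was tested (-0.09), and 1 of 14 skeletal muscle markers was above 0 (median -0.27; Actn3 -0.51, Mylpf -0.45, Pvalb -0.46). Summed skeletal muscle markers ran from 4.46 to 6159 CPM in libraries labelled iFAXLKO and from 25.9 to 4452 CPM in WT, and with that score as a covariate no member changed direction apart from Timp3, which stayed at 0.00.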

How the data were processed

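Whole iBAT was sequenced from 13 mice (TruSeq RNA kit). The authors deposited raw counts per Ensembl gene, 1 table per library. Their labels name poly-A RNA, bcl2fastq 2.20, fastp 0.20.0, STAR 2.7.4a, DESeq2 and GRCm38.p6, whereas the study's methods describe rRNA depletion, Trim Galore and hisat2. The counting program and its strand setting are not given in the sources used here.

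Symbols and exon lengths came from the GENCODE M21 annotation, which matched 42347 of 42416 identifiers. Genes with more than 1 CPM, before TMM scaling, in at least 5 libraries were tested with edgeR 4.0.16 in R 4.3.3. The settings were TMM, robust quasi-likelihood test, group as the only term and Benjamini-Hochberg adjustment over all 13360 genes. Log2 CPM used a prior count of 2. CPM per kilobase divided by the summed exon length, without regard to which transcripts were used. Single genes were compared by exact permutation and relations by 100000 permutations within groups. Alternatives included DESeq2 1.42.0, limma-voom (limma 3.58.1), other scalings and filters, covariates and leaving out each library. The code was tested on simulated data.

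The members and lists were chosen with earlier results of these data known. Named from each list were Axl, all members, genes past an adjusted p of 0.05 or else the 3 with the smallest p, and for each member the 3 genes most like it; the genes of 1 marker list are not reported here by name. The labels do not state cages or dates, and p-values measure the spread between these libraries. No 2 libraries of a group agreed within sampling noise.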

Additional observations from a re-analysis of the deposited data

Results flagged for a closer look

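Adamts2 in replicate 7 of the libraries labelled iFAXLKO, at 26.2 CPM, lay farther above the other 7 of its group than Dixon's 95% limit for 8 values allows. Chance passes that limit in about 1 in 20 groups, and 22 groups (the 10 genes and Axl in both groups of mice) were examined. The same library had the highest Mmp2, at 33.3 CPM, and the cause was not tested.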

How the results depend on the processing

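None of the 9 genes passed an adjusted p of 0.05 in edgeR or under any of the 27 alternatives, with the lowest adjusted p of any member at 0.0783 (Timp2, DESeq2). Timp2, Mmp2, Adamts1 and Adamts5 kept a value above 0 under all 27. Of all genes, 17 passed in edgeR, 67 in DESeq2, 10 with the fibroblast score as a covariate, and 2 within the lower and 2 within the upper library numbers, which hold fewer samples. The upper numbers turned Mmp14 to -0.06, Mmp19 to 0.04 and Timp3 to -0.08, and the fibroblast score turned Mmp19 to 0.01, Timp4 to -0.07 and Adamts2 to -0.31. Timp3, at 0.00, ran from -0.13 (without WT replicate 2) to 0.17 (without WT replicate 5) and was -0.13 in limma-voom with sample weights. The relation of Mmp14 with Mmp2 was -0.69 within the lower numbers, and that of Timp2 with Mmp14 was -0.24 there, -0.04 without the 2 libraries most extreme in Timp2 and -0.31 with the fibroblast score removed, none past the test. The causes were not tested. With the replicate number as a block, in which replicates 6 to 8 have no WT partner and add nothing, 7 genes passed and none of the members. Same-numbered libraries did not deviate together in every pair (r of 0.39, 0.42, 0.19, 0.18 and -0.61 for replicates 1 to 5). The labels do not say whether they share more than a number, and this was not tested. WT libraries 2 and 3 alone were most like the same number. With 8 against 5 mice, the 95% intervals allow folds of up to 1.70 for Timp4 and 1.41 for Timp3.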
